A study of Rattus norvegicus with 15 samples.

Results

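In whole blood of rats with deep venous thrombosis, 80 annotated features had a low median 1 h after modelling and higher medians in sham and at 72 h. They were chosen from measured values: of 15043 annotated features, 4216 had a normalised read count of at least 50 in at least 3 of the 9 sham, 1 h and 72 h libraries, and 80 of these (1.90%) had a median log2(value + 1) at 1 h that lay at least 1 below the medians of both sham and 72 h. A difference of 1 on this scale is close to 2-fold for abundant features and understates the change of low ones. The levels in these 9 libraries therefore describe the choice and are given without a test. The 6 h and 12 h libraries did not enter the choice.

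All animals were Sprague-Dawley rats (an outbred stock), male, of 6 to 8 weeks and 250 to 300 g. There were 5 groups of 3 libraries: a sham group with the time label 0 h, and groups bled at 1 h, 6 h, 12 h or 72 h from modelling. The way the clot was induced, and what the sham animals underwent, are details not given in the sources used here. Run label A&B marks the 9 libraries of sham, 1 h and 72 h, and run label C marks the 6 libraries of 6 h and 12 h, so any difference of 6 h or 12 h from the other groups cannot be told apart from the run label. Nothing in the labels ties replicates to separate animals, so that p-values measure only the spread between these libraries, which may be technical.

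Deep venous thrombosis is the formation of a clot in a deep vein, with platelets, coagulation factors, neutrophils and monocytes all known to take part. RNA from whole blood is a mixture from red cell precursors, platelets and white cells, and in bulk blood fewer cells of a type and less RNA per cell cannot be told apart. The files do not pair the feature IDs with gene names, and the reference table used here lists no Ensembl IDs, so that the marker check of the tissue, the gene lists by function and the printing of gene sequences could not be made, and the features are described by level and time course.

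Whole reads recovered from the values came to 29.2 to 43.3 M (mega-reads) per library, of which 79.3 to 85.1% fell on 5 assembled features that are no members. The other features shared 4.67 to 7.65 M reads per library. The authors divided each library by a factor, here called the library factor, lowest in 12 h replicate 2 (0.584) and highest in 12 h replicate 3 (2.67), the library that stands apart from the rest.

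Across the 80 members the median normalised read count was 106 in sham, 29.1 at 1 h and 92.2 at 72 h, taking the median of 3 libraries for each feature. For all 4216 eligible features it was 104, 103 and 103. The fall from sham to 1 h had a median of 1.56 log2 units over the members and ran from 1.01 to 4.82. The rise from 1 h to 72 h had a median of 1.49 and ran from 1.00 to 4.27. In 54 of the 80 the 72 h median lay within 0.5 log2 units of sham and in 71 within 1, and it was above sham in 32. The members differed from sham at 72 h by a median size of 0.34 log2 units, against 0.36 over all eligible features.

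**Figure D1:**
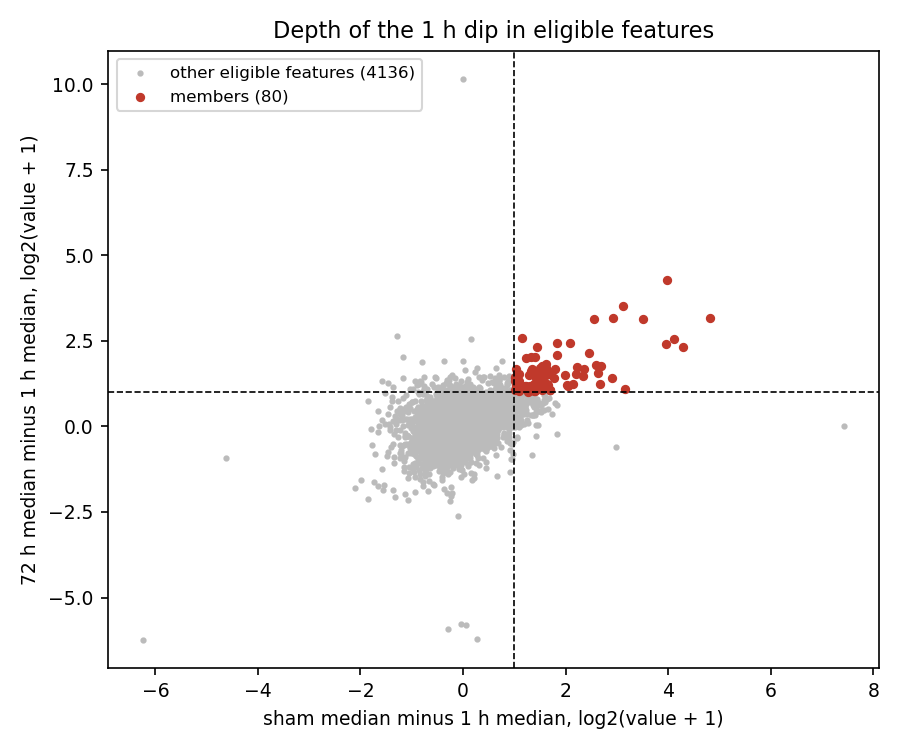
Each point is 1 of 4216 eligible annotated features; the x axis is the sham median minus the 1 h median and the y axis the 72 h median minus the 1 h median, both on the log2(value + 1) scale, with dashed lines at 1. The 80 members (red) fill the upper right corner by the rule, and 4 of them reach at least 3 on both axes.

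Most dips were shallow. The smaller of the 2 differences, here called the dip, was between 1 and 1.5 in 52 members, between 1.5 and 2 in 17 and at least 2 in 11. Next to the threshold, the shallowest member had median counts of 58.8 in sham, 23.8 at 1 h and 48.7 at 72 h, a dip of 1.001. The nearest feature outside had 96.7, 29.1 and 59.2, a dip of 0.9996, so the members grade into the features around them.

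Since the rule asks for a low median of 3, at least 2 libraries at 1 h had to be low in every member. Counts of the members had a median of 39.7, 38.3 and 28.7 in replicates 1, 2 and 3 at 1 h, against 108, 112 and 94.1 in sham and 88.2, 115 and 85.4 at 72 h. Every 1 h library thus lay below every sham and 72 h library in the median member, while the median of all eligible features stayed between 6.66 and 6.78 log2 units in all 15 libraries. Among single members, 63 of 80 had all 3 libraries at 1 h below all 3 sham libraries, where 13.8% of eligible features did. For 72 h the number was 58, where 9.58% did, and 54 lay below both groups without overlap, where 4.96% did. The rule fixes these counts in large part, and nothing is read from them.

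**Figure D2:**
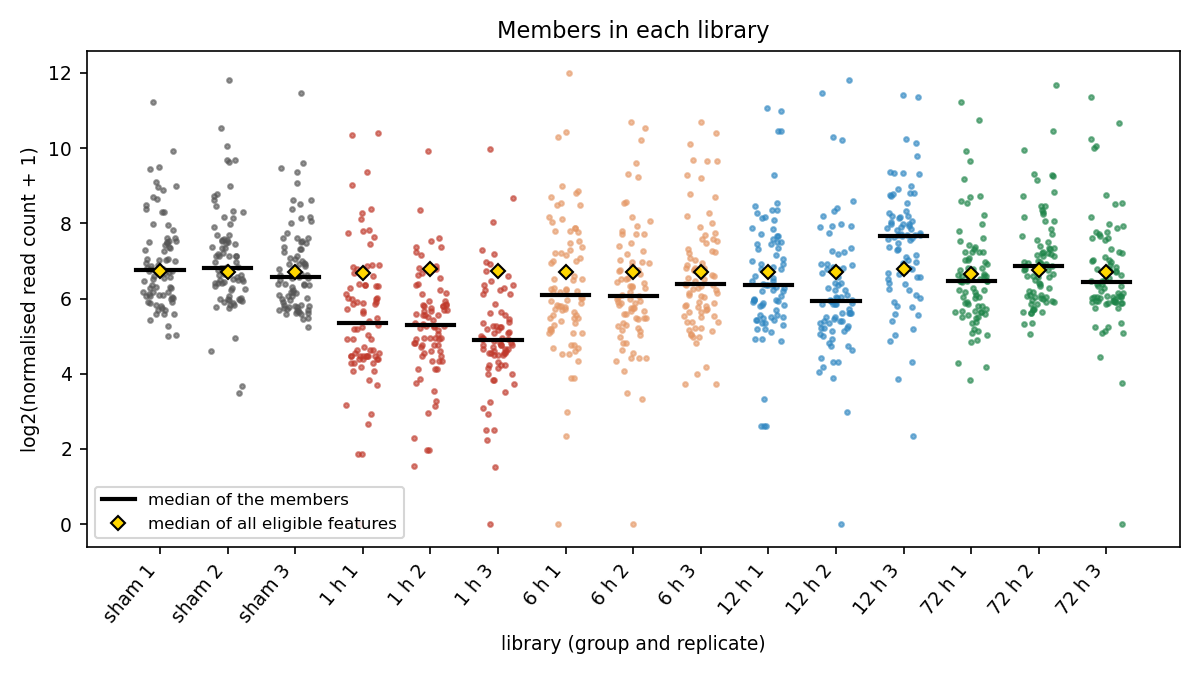
Each dot is 1 of the 80 members in 1 library, as log2(normalised read count + 1); black bars are the median of the members and diamonds the median of all 4216 eligible features. The bars drop to between 4.89 and 5.35 in the 3 libraries at 1 h and reach 7.65 in 12 h replicate 3, while the diamonds stay level.

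The 1 h libraries were not alike in all members. Replicate 3 lay below the sham and 72 h medians in all 80, replicate 2 in 77 and replicate 1 in 70. In 67 members all 3 libraries did so, and in the other 13 only 2 did. A fall of at least 1 below both medians was present in all 3 libraries in 20 members and in 2 of 3 in the remaining 60. Library factors at 1 h were 0.755, 1.03 and 1.06, against 1.00, 1.28 and 1.55 in sham and 0.760, 1.57 and 0.726 at 72 h. Whether the factor bears on the 1 h levels was not tested.

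A look at the same measure in libraries that had no part in the choice was had by leaving out each of the 9 libraries in turn, choosing features from the other 8 and reading the library left out. Features chosen without 1 h replicate 1, 2 or 3 numbered 85, 102 and 98. In the library left out, 82.4%, 82.4% and 86.7% of them lay below both other medians, against 36.9%, 32.7% and 34.3% of eligible features. The size was smaller there than in the choice: the left-out 1 h libraries lay by medians of -0.72, -0.65 and -1.03 log2 units from the lower of the sham and 72 h medians. Over all eligible features these medians were 0.21, 0.20 and 0.21. At least 1 below were 31.8%, 40.2% and 54.1% of the chosen features, against 4.55%, 2.09% and 2.84% of eligible features. Left-out sham libraries lay above the 1 h median in 98.6 to 100% of chosen features, with median differences of 1.497 to 1.73. Left-out 72 h libraries did so in 94.7 to 98.5%, with median differences of 1.17 to 1.82. Of the 80 members, 33 were chosen again whichever library was left out, and the other 47 were not. Each left-out library was read against medians that the choice had picked as high or as low, so chosen features would lie on the side of the rule more often than eligible ones even without a change. The shares are therefore given as a description.

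**Figure D3:**
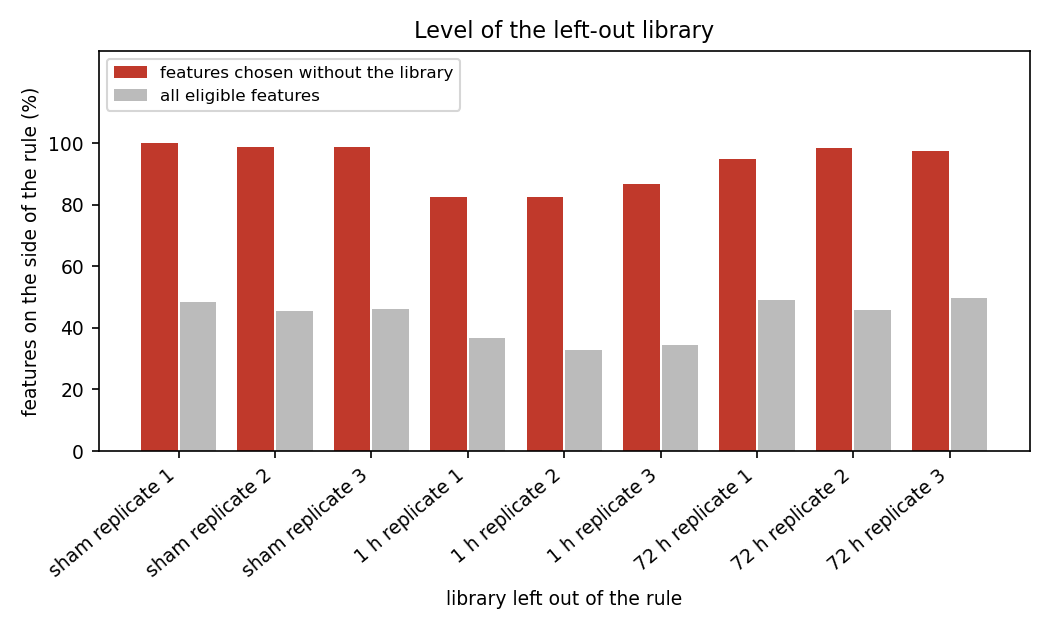
For each of the 9 libraries (x axis), bars give the percentage of features whose level in that library lay on the side the rule asks for: below both other medians for 1 h, above the 1 h median for sham and 72 h. Red bars are features chosen without the library, at 82.4 to 100%, and grey bars all eligible features, at 32.7 to 49.6%.

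By mean log2 level over all 15 libraries, members were more frequent among the lower eligible features. In 4 equal parts of the eligible features by mean level, from low to high, 32, 24, 15 and 9 were members, which is 3.04%, 2.28%, 1.42% and 0.854% of each part. That mean includes the 1 h libraries, where the rule picked members as low, so the choice itself moves members towards the lower parts. In sham alone the median count was 106 in the members and 104 over all eligible features. The value filter also bears on the order of the parts. Of the members, 33 had no 1 h library at 50 or more and passed through sham and 72 h, 30 had 1 or 2, and 17 had all 3. Read numbers behind the 1 h levels were moderate, with a median of 101 reads per member over the 3 libraries and a range of 8 to 3043, and 2 members had fewer than 30. Reads of a member in sham and at 72 h had medians of 396 and 302.

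The most abundant member, ENSRNOG00000018087, had normalised read counts of 2400, 3623 and 2821 in sham, 1294, 971 and 1000.4 at 1 h and 2410, 3262 and 2638 at 72 h. At 6 h it had 1370, 1198 and 1672, and at 12 h 1395, 1184 and 2637. All 1 h libraries lay below all sham and 72 h libraries, and the 6 h libraries, together with 2 of the 3 at 12 h, also lay below them. The mean was 1088 ± 178 at 1 h, against 2948 ± 621 in sham and 2770 ± 441 at 72 h, while 6 h had 1413 ± 240 and 12 h had 1739 ± 785 (SD, n = 3). The log2 difference of 1 h from sham was -1.43 (SE 0.38) and that of 72 h from 1 h 1.35 (SE 0.38), both from the limma fit and both part of the choice. Between 12 h and 6 h it was 0.22 (SE 0.38, limma adjusted p = 0.990, range over its alternatives 0.821 to 1). It turned to -0.12 without 12 h replicate 3, and it was 0.11 and 0.35 without 6 h replicates 2 and 3 and 0.34 and 0.45 without 12 h replicates 1 and 2. Other tests and scalings put it at 0.16 to 0.42. This feature held 13.9% of the summed values of all members. With libraries set to equal totals of the non-dominant features its dip was 1.05, and with quantile normalization 1.04, against 1.40 on the deposited scale.

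The deepest dip belonged to ENSRNOG00000057125, with counts of 122, 79.7 and 89.2 in sham, 62.2, 1.94 and 4.70 at 1 h and 86.9, 161 and 109 at 72 h. At 6 h its libraries were at 13.7, 0 and 108, where 0 reads allow a level of up to 3.39 (3 counts, counting error only), and at 12 h at 61.4, 36.0 and 18.7. At 1 h and at 6 h a single library thus lay far above the other two, while all sham and 72 h libraries were at 79.7 or more. Its dip of 3.99 became 2.25 when 1 h replicate 2 was left out and 2.73 when 1 h replicate 3 was. Set against 6 h, the 12 h log2 difference was 1.61 (SE 1.37, limma adjusted p = 0.990, range over its alternatives 0.790 to 1). Its direction and size were not stable: it was -0.17 in edgeR, -0.09 in DESeq2, 0.58 with a pseudocount of 10, -0.17 without 6 h replicate 2 and 3.22 without 6 h replicate 3.

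Wide spread at 1 h and 6 h was found mostly in the deepest dips. A range of at least 3 log2 units (8-fold) between the 3 libraries at 1 h occurred in 10 of the 80 members (12.5%), where 0.664% of eligible features had it. Among them were 7 of the 11 with a dip of at least 2 and 2 of the 52 with a dip under 1.5. The rule used the 1 h libraries, so these counts are a description. Replicate 1 was the highest library in 7 of the 10 members with that range at 1 h, and replicate 2 in 3. The spread at 6 h, which the rule did not use, was that wide in 6 of 80 members (7.50%), where 0.759% of eligible features had such a range, and 5 of these 6 had a dip of at least 2. At 12 h it was that wide in 10 of 80 (12.5%), where 2.68% of eligible features had it; 3 of these 10 had a dip of at least 2 and 5 a dip under 1.5. The difference in these shares was not tested, and eligible features were not matched to the members for level. At 6 h the 11 deepest members had a median count of 45.1, against 102 over all eligible features. Of the 11 deepest members, 5 separated 1 h from both sham and 72 h without overlap, and of the 52 shallowest 36 did, where 4.96% of eligible features did. The libraries of the rule set both the depth and this separation, so nothing is read from these counts.

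At 6 h and 12 h the members lay between the 1 h level and the sham level. Their median count was 75.2 at 6 h and 81.9 at 12 h, against 102 and 103 over all eligible features. In the 3 libraries at 6 h the median member stood at 67.2, 66.6 and 82.2, above the 28.7 to 39.7 at 1 h and below the 94.1 to 112 in sham. Replicates 1, 2 and 3 at 12 h had 81.9, 59.96 and 200.1, so that 12 h replicate 3 stood above all other libraries of the series. Since the rule picked features that were high in sham and 72 h and low at 1 h, levels in other libraries would be drawn to between these without any change in time.

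Member by member, the 6 h median was at or below that of 1 h in 5, between 1 h and the lower of sham and 72 h in 43, between sham and 72 h in 17 and above both in 15. At 12 h these numbers were 1, 43, 16 and 20. A 6 h median at least 1 below sham was present in 18 members (22.5%), where 7.4% of eligible features had it, and a 12 h median that low in 16 (20%), where 7.92% had it. The rule picked members with high sham medians, so they would lie below sham more often than eligible features even without a change. Nothing is read from these shares. Still at least 1 below both sham and 72 h were 4 members at 6 h and 12 h alike, 6 at 6 h only and 5 at 12 h only, while 65 were so at neither time. Members at least 1 above their 1 h median at both 6 h and 12 h numbered 41, and 20 were so at neither.

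How far the members stood from sham at 6 h went with the depth of the dip. The 52 shallowest had a median count of 73.2 at 6 h against 94.9 in sham, a median log2 difference of -0.29. The 17 of middle depth had 95.8 against 109 and a difference of -0.38. The 11 deepest had 45.1 against 112 and a difference of -1.03. At 12 h the differences of the 3 classes were -0.37, -0.52 and -0.78. Sham levels entered both the depth and the difference, so this order is a description only.

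The comparison of 12 h with 6 h lies within run label C, and the size of the difference uses no library of the rule. Its SE and p-values in limma rest on 1 estimate of the spread from all 15 libraries, 9 of which the rule used. No member passed adjusted p 0.05 in limma (0 of 80), where 0% of the 11117 features tested did, and the lowest adjusted p among the members was 0.990. At an unadjusted p under 0.05 there were 6 members, where 3.8% of the features tested were; 5 were higher at 12 h, where 1.93% of features were, and 1 was lower, where 1.87% were. Fitted to the 6 h and 12 h libraries alone, limma called 0 members. That fit put 3 of 80 at an unadjusted p under 0.05, and 169 of all 11117 features. The median log2 difference of the members was 0.32, running from -1.84 to 2.90 with a median SE of 0.49, and 59 of 80 (73.8%) were higher at 12 h. Over all features tested the median was -0.06 and 44.98% were higher. Without 12 h replicate 3 the median of the members was -0.07 and 35 of 80 (43.8%) were higher, against a median of -0.03 and 47.7% over all features, so the shift towards 12 h rested on that library. Libraries of 12 h lay above those of 6 h without overlap in 4 members, where 2.51% of eligible features did, and below in 1, where 2.02% did.

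edgeR on the recovered reads called 0 features between 12 h and 6 h (13 members at unadjusted p under 0.05, where 3.36% of features were). DESeq2 called 2 members, both higher at 12 h, where 0.0723% of the features it tested were called higher. They are given here although they were chosen after their values were seen. ENSRNOG00000030404 had counts of 19.2, 20.3 and 15.02 at 6 h and 326, 36.0 and 237 at 12 h, a log2 difference of 3.47 (SE 0.76, DESeq2 adjusted p = 0.00798) that limma put at 2.90 (SE 0.77, adjusted p = 0.990) and, without 12 h replicate 3, at 2.53. All 12 h libraries lay above all 6 h libraries, yet 12 h replicate 2 was far nearer to 6 h than to the other two. The same feature had 330, 315 and 288 in sham, 329.7, 30.1 and 40.4 at 1 h and 371, 422 and 362 at 72 h. In all 15 libraries it was thus either at 15.02 to 40.4 or at 237 to 422, with 1 h replicate 1 at the level of sham. The dip of such a feature depends on whether at least 2 of the 3 libraries at 1 h are at the low level. Whether libraries at the 2 levels differ in something other than time was not tested.

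ENSRNOG00000001806 had counts of 13.7, 10.2 and 12.2 at 6 h and 28.1, 36.0 and 176 at 12 h. DESeq2 gave a log2 difference of 2.77 (SE 0.69, adjusted p = 0.0495), limma 2.15 (SE 0.62, adjusted p = 0.990), and limma without 12 h replicate 3 1.34. It had 130, 144 and 109 in sham, 21.2, 2.91 and 6.58 at 1 h and 43.4, 50.9 and 37.2 at 72 h. Every 1 h library lay below every sham and 72 h library, and every 72 h library below every sham library. The adjusted p over all alternatives of the comparison reached from 0.00798 to 1 for the former feature and from 0.0495 to 1 for the latter.

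**Figure D4:**
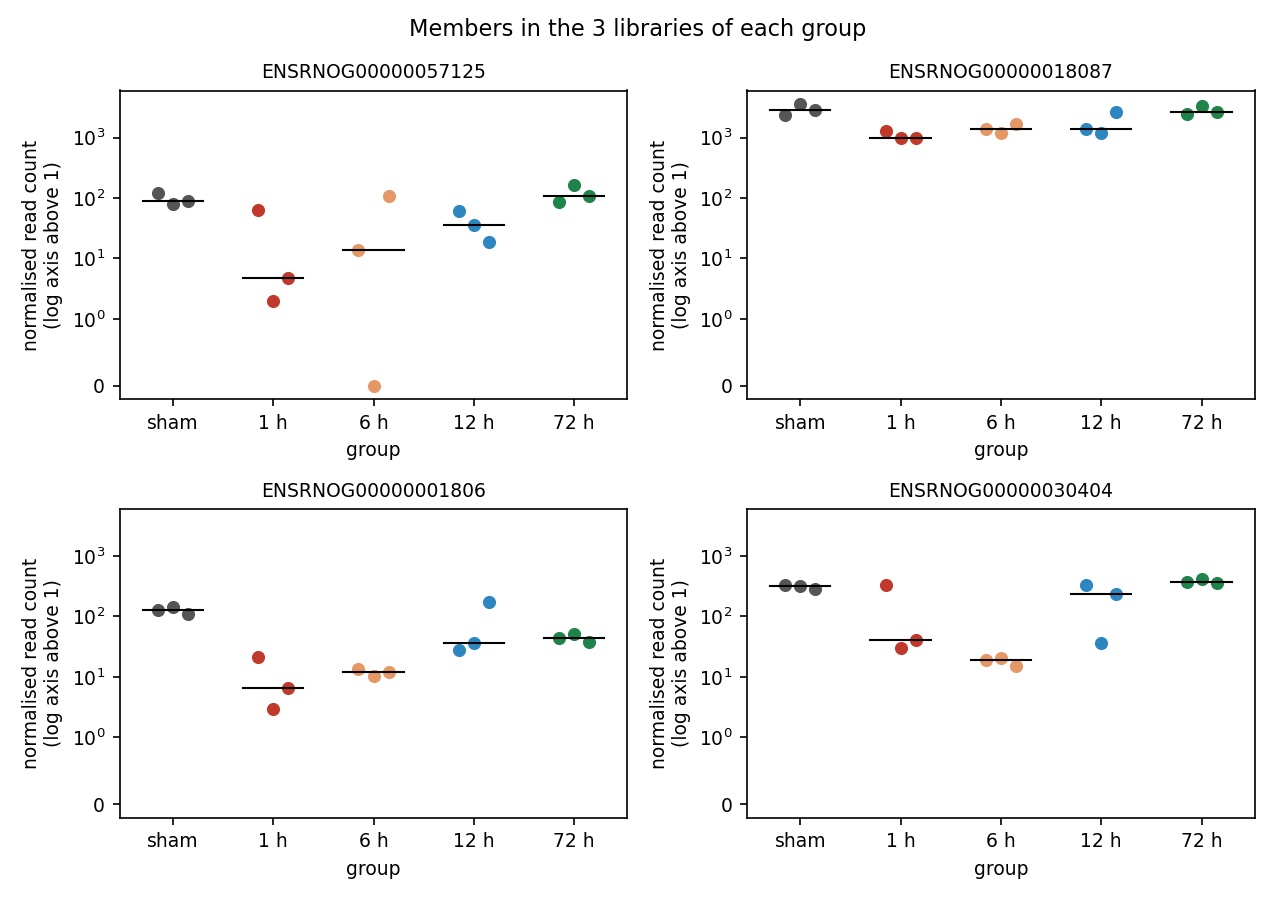
Normalised read counts of 4 members in the 3 libraries of each group (points from left to right are replicates 1 to 3, bars are medians), on an axis that is logarithmic above 1. The most abundant member, ENSRNOG00000018087, spans 971 to 1294 at 1 h and 1184 to 2637 at 12 h, while ENSRNOG00000057125 and ENSRNOG00000030404 have 1 h replicate 1 far above the other two libraries at 1 h.

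The members moved with the library factor in the 6 libraries of 6 h and 12 h. Their slope had a median of 0.56 log2 units per unit of log2 factor, and 72 of 80 (90.0%) had a slope above 0, against a median of 0.10 and 55.7% over the eligible features. In the 4 parts of the eligible features by mean level, from low to high, median slopes were 0.30, 0.19, 0.09 and -0.60. The lower parts, which hold most members in part by the choice, thus lay nearer to the members than all eligible features did. Without 12 h replicate 3 the slope of the members was 0.37, with 59 of 80 (73.8%) above 0, against 0.05 and 52.3%. In 12 h replicate 3 itself 63 of 80 members (78.8%) were at the highest of the 12 h levels and 40 (50.0%) at the highest of all 15 libraries, against 47.8% and 16.4% of eligible features. The part of the factor in the 12 h levels was not tested beyond this.

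A sum over reads outside the 5 dominant features does not use the factor. In reads per M (mega-reads) of that kind the members together took 3199, 4303 and 4472 in sham, 1224, 1060 and 913 at 1 h and 2349, 4704 and 2441 at 72 h. At 6 h they took 1998, 1525 and 3240, and at 12 h 2093, 1649 and 8478. The sham, 1 h and 72 h sums come from the reads that chose the members and restate that choice, while the 6 h and 12 h sums do not. Among those, 12 h replicate 3 was the highest. The median of all eligible features, nearly level on the deposited scale, is also raised on this scale in that library. Its factor of 2.67 goes with 7.65 M such reads, against 0.782 with 5.96 M and 0.584 with 5.49 M in 12 h replicates 1 and 2. How much of the members' sum there is shared by features in general was not tested. Equal totals without the dominant features moved the median of all eligible features at 1 h by -0.26 log2 units from sham, and the members' median difference there was -2.05.

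**Figure D5:**
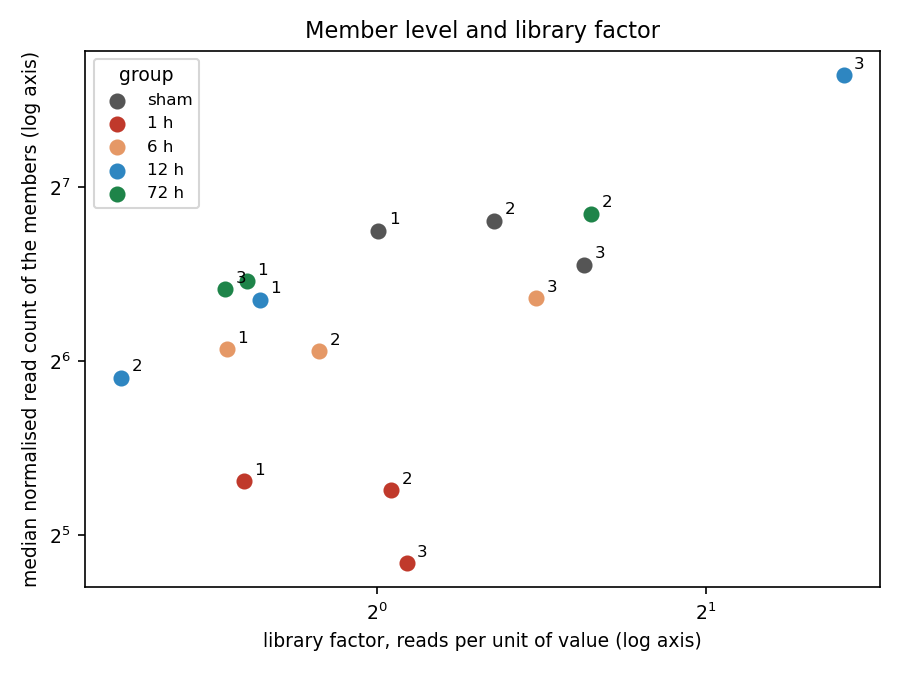
Each point is 1 library, numbered by replicate; the x axis is the library factor and the y axis the median normalised read count of the 80 members, both on log axes. The 3 libraries at 1 h (28.7 to 39.7) are low by the choice of members, and 12 h replicate 3 stands alone at a factor of 2.67 and a median of 200.1.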

How the data were processed

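RNA came from blood drawn into PAXgene tubes and was made into libraries with an NEBNext Ultra RNA kit, per the labels' protocols. Per the submitters' processing notes, Bowtie 0.12.2 and the build Rnor_6.0 were used, with no role named. Counting tool, annotation and strand setting stay not given in the sources used here, so near-identical copies and overlapping features may share reads. The deposited table is a signal: reads per feature that the authors divided by 1 factor per library. In every library 100% of values were within 0.01 of a whole multiple of a single step (at most 0.00989 from it), which gave the reads; in sham replicate 1 the step is close to 1 and less well tested.

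The members, lists and rules were chosen with earlier results of these data known. Differences come from limma 3.58.1 (trend, robust; R 4.3.3) fitted to log2(value + 1) of all 15 libraries at once, with two-sided tests of the 11117 features that reached a value of 10 in 3 or more libraries and Benjamini-Hochberg adjustment at 0.05. edgeR 4.0.16 and DESeq2 1.42.0 on recovered reads, other scalings, filters and pseudocounts, and each library left out were alternatives. This fit was also tested on simulated data. The outcome of that run is not reported here, and nothing is read from it. Features named by ID are the member with the deepest dip, the most abundant member and 2 added after their values were seen; IDs could not be paired with symbols. For each of the 3 replicate numbers, deviations of the 6 h and the 12 h library from their group means were correlated (r of 0.132 to 0.448 across features, all above 0.1), so replicate numbers were taken to pair these libraries. Among the other pairs of groups the correlations ran from -0.33 to 0.31, so single values there passed 0.1 as well. The pairing is thus an assumption, and the main fit did not use it. The labels do not say what a number shares.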

Additional observations from a re-analysis of the deposited data

How the results depend on the processing

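The count of 80 members was 281 at a minimum value of 10, 46 at a minimum of 100 and 28 at a dip of at least 1.5, where by construction more or fewer features qualify. Under the other settings of scaling, pseudocount and group centre it was 55 to 116, and with single libraries left out 66 to 102. Shared with the 80 were 59 with group means in place of medians, 61 with equal totals without the dominant features, 79 with TMM scaling and 58 to 77 with single libraries left out. Between 12 h and 6 h the 0 calls of limma became 15 with DESeq2 (8 higher), 2 of them members, and 0 to 8 with single libraries left out, where the 8 without 12 h replicate 3 were all lower at 12 h and included 0 members. With the replicate number as a block the count was 0 (462 at unadjusted p under 0.05, 6 of them members), and the pairing changed no call. The members' median difference of 0.32 lay between 0.26 and 0.56 under other tests, scalings and covariates, and between -0.07 and 0.69 with single libraries left out. The run of 6 h and 12 h alone with the block, limma without trend, and the values without 12 h replicate 3 for slopes and shares were added after the data were examined.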

Other observations

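The same rule turned to other groups and directions found 20 annotated features with a peak at 1 h, 62 low in sham, 35 high in sham, 45 low at 72 h and 79 high at 72 h, each against both other groups of run label A&B and out of the same 4216 features. The 80 low at 1 h were thus nearly matched in number by those high at 72 h, and 4 times as many features dipped at 1 h as peaked there. These counts were not tested against each other. Among 1515 assembled gene models that met the value filter, 41 (2.71%) dipped at 1 h and 16 peaked, against 1.90% of annotated features that dipped. Assembled models high at 72 h numbered 54 (3.56%) and those low in sham 51 (3.37%).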
